A study of Homo sapiens with 6 samples.

Results

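The integrated stress response genes described here are 10 genes: the transcription factors ATF4, DDIT3 (CHOP), ATF3, ATF5 and XBP1, and the effectors PPP1R15A (GADD34), TRIB3, CHAC1, SESN2 and DDIT4 (REDD1). They were taken by symbol, and all 10 were found once each among the 61853 entries of the count table. Their RNA was measured in H9, an established human embryonic stem cell line, on day 0, when the cells were undifferentiated, and on day 30 of differentiation of the same line into neurons of the arcuate nucleus type, with 3 libraries per day. By the labels' protocols, the day 30 cells had been given LDN-193189, SB431542, purmorphamine and sonic hedgehog, later DAPT with B-27, had been lifted with accutase and replated with a ROCK inhibitor, and were last fed with BDNF. No gene was altered and no stressor was applied in either group, the groups come from 1 cell line, and nothing in the labels says whether the 3 libraries of a day were separate cultures, so p-values measure only the spread between these libraries, which may be technical.

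In the integrated stress response, a kinase that senses a particular stress phosphorylates the translation initiation factor eIF2, which lowers general protein synthesis while the mRNA of ATF4 is translated more. ATF4 then activates genes of amino acid supply and of stress adaptation, among them DDIT3, ATF3, TRIB3, CHAC1, SESN2, DDIT4 and PPP1R15A, and the last of these directs a phosphatase to eIF2 and so closes the loop. XBP1 belongs to the IRE1 branch of the unfolded protein response, the neighbouring pathway of the endoplasmic reticulum, and its active form is made by splicing of its mRNA. The amount of ATF4 protein, the phosphorylation of eIF2 and the spliced form of XBP1 cannot be read from counts per gene, and the values below are RNA levels.

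Total counts were 7178453 to 8794008 per library on day 0 and 5013643 to 12924842 on day 30. Levels are counts scaled to a library total of 1000000 (CPM), and changes are log2 differences of day 30 against day 0 from the edgeR quasi-likelihood fit with TMM scaling, with an approximate standard error. The cells matched their labels: all 8 pluripotency markers tested were lower and all 8 pan-neuronal markers higher on day 30, and of 8 hypothalamic and arcuate markers the 5 tested were higher, POMC and NKX2-1 among them, while NPY, AGRP and RAX were too low to test. The summed level of 5 genes of dividing cells was 1436 to 1450 CPM on day 0 and 18.9 to 53.7 CPM on day 30. The 6 neural progenitor markers summed to 1195 to 1930 CPM on day 0 and still to 890 to 1114 CPM on day 30. Of the 4 tested, 2 were lower, 2 did not pass and 0 were higher, while PAX6 and HES5 were too low to test. Day 30 replicate 3, the library of lowest depth, stood apart by mesenchymal genes: the 6 mesenchymal and neural crest markers summed to 4562 CPM in it, against 178 and 642 CPM in the other day 30 libraries and 226 to 313 CPM on day 0, with FOXD3 at 0 in all day 30 libraries. The sum in day 30 replicate 2, 642 CPM, was also above that of every day 0 library. Among these 6 mesenchymal and neural crest markers 5 were tested, and 4 were called higher and 1 lower on day 30. TWIST1 was too low to test. Of the markers of astroglia, oligodendroglia, endoderm, endothelium, and microglia and blood, none of those tested was called higher on day 30. That covers 3 of 6 astroglial, 5 of 6 oligodendroglial, 1 of 5 endodermal, 2 of 4 endothelial and 1 of 4 microglial and blood markers, since the others, GFAP, S100B and PECAM1 among them, were too low to test. Because of the mesenchymal genes in day 30 replicate 3, the change of each member is given with and without that library. For the other genes of the pathway the calls without it are counted. In bulk RNA, fewer cells of a type and less RNA per cell cannot be told apart.

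The sequences upstream of these genes were searched for the elements that factors of the pathway are known to bind. RefSeq start windows (GRCh38.p14, the build of the deposited data) were found for all 10 genes, and the 250 bases before each start were read on both strands. The exact composite element of ATF4 and C/EBP proteins, TGATGCAA, was found in 1 member, CHAC1, and in 0.967% of the 27305 genes with such windows. With 1 free base, as TGATGNAA, which includes the exact form, it was found in CHAC1 and ATF3 and in 3.89% of genes. The cyclic AMP response element TGACGTCA was found in PPP1R15A and in 2.03% of genes, and the endoplasmic reticulum stress element, CCAAT and CCACG separated by 9 free bases, in XBP1 and in 0.0916% of genes. The CCAAT box, CCAAT, which is also the first part of that element, was found in 6 members (DDIT3, ATF3, CHAC1, DDIT4, SESN2 and XBP1) and in 37.0% of genes. These matches are descriptions of letters, and no match says only that the letters are not in this window. A promoter is shown for the composite, cyclic AMP and endoplasmic reticulum stress elements, with the matched letters in capitals: CHAC1, which fell (chr15:40953221-40953470, plus strand), PPP1R15A, which rose (chr19:48872171-48872420, plus strand), and XBP1, which fell (chr22:28800570-28800819, minus strand).
CHAC1: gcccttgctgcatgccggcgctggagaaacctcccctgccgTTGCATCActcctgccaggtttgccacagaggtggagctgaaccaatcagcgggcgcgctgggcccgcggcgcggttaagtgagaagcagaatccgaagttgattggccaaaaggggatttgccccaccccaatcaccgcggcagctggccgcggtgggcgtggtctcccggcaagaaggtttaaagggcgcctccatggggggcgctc
PPP1R15A: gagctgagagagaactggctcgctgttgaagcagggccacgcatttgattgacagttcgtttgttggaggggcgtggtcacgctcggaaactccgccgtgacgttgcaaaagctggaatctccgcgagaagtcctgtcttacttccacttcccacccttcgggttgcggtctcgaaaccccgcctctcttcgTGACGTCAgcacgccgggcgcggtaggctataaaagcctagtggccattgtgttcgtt
XBP1: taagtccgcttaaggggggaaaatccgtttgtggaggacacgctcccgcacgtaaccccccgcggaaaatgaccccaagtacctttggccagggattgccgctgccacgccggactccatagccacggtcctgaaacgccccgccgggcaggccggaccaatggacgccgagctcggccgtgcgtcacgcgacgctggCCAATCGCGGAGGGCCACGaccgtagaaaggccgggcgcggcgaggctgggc
In CHAC1 the capitals lie 209 to 202 bases before the start and read as the element on the opposite strand, in PPP1R15A they lie 58 to 51 bases before it, and in XBP1 52 to 34 bases before it.

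Between the days the members split. DDIT3, PPP1R15A, TRIB3 and ATF3 rose, while ATF4, CHAC1, DDIT4, XBP1 and SESN2 fell, and ATF5 did not pass the test. Of the 10 members, all of which were tested, 9 passed at an adjusted p under 0.05, beside 76.6% of the 18040 genes tested. The 4 that rose stand beside 39.8% of all tested genes and the 5 that fell beside 36.8%, so most of the genes tested were called, and these shares are no result particular to the members. CPM ranges of the days did not overlap for 8 members, against 79.4% of tested genes. The median log2 change of the members was −0.40 and that of all tested genes 0.08, and the median size of the change, without its sign, was 0.97 for members and 1.15 for all genes.

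**Figure D1:**
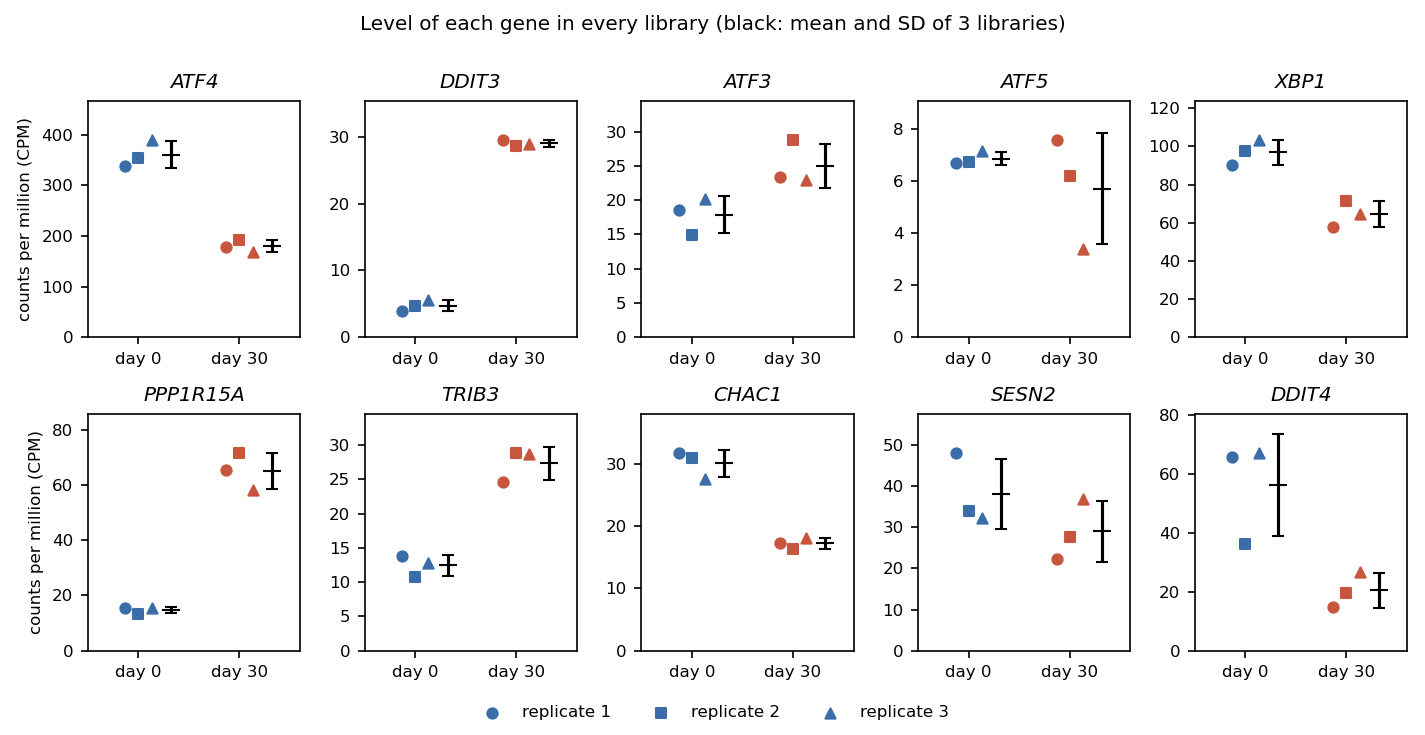
Level of each gene in CPM (vertical axes, from 0) in the 3 libraries of day 0 (blue) and of day 30 (red), with a marker shape for each replicate number and the mean and SD in black. The days are apart in 8 panels and overlap in those of ATF5 and SESN2, where day 30 replicate 3 is the lowest and the highest library of its day.

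ATF4 (ENSG00000128272.18, chromosome 22, 39519695 to 39522685), the transcription factor at the centre of the response, was at 338, 355 and 389 CPM on day 0 and at 178, 193 and 169 CPM on day 30. Every day 0 library was above every day 30 library. The means were 361 ± 26.3 and 180 ± 11.9 CPM (SD, n = 3 per day), and the log2 change was −1.09 ± 0.12 (SE; edgeR adjusted p = 1.18e-05). Without day 30 replicate 3 it was −1.01. Processed pseudogene copies of ATF4 held few reads, the most in ATF4P3 with 7 counts over day 0 and 40.5 over day 30, against 8592 and 5071 for ATF4 itself. Adding the reads of the copies, an alternative chosen after seeing the data, gave −1.09.

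DDIT3 (ENSG00000175197.13, chromosome 12, 57516588 to 57521737), which encodes CHOP, a C/EBP family factor induced downstream of ATF4 and linked to cell death under lasting stress, moved the other way. It was at 3.93, 4.74 and 5.52 CPM on day 0 and at 29.5, 28.5 and 28.9 CPM on day 30. The day 30 libraries lay close together and far above day 0, including the library rich in mesenchymal genes. The log2 change of 2.52 ± 0.18 (edgeR adjusted p = 3.32e-07) was the largest of the members, a 6.13-fold rise in mean CPM, and it was 2.57 without day 30 replicate 3. It rests on 113 counts in all on day 0 and 799.5 on day 30.

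The DDIT3 locus is shared. AC022506.1 lies within it on the same strand (57517712 to 57520480) and held 16 counts on day 0 and 141.5 on day 30, and the miRNA gene MIR616 held 9 and 18. With the reads of both added to DDIT3 the log2 change was 2.49. On the opposite strand the end of the methionyl-tRNA synthetase gene MARS1 (MARS in GENCODE release 29) overlaps the end of DDIT3 by 982 bases, and whether strand was used in counting is not stated in the sources at hand. MARS1 itself went the other way, from 331 to 184 CPM with a log2 change of −0.94. MBD6 also overlaps DDIT3 on the opposite strand, by 1028 bases. It held 104 counts on day 0 and 155.5 on day 30, against 113 and 799.5 for DDIT3.

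ATF3 (ENSG00000162772.17, chromosome 1, 212565334 to 212620777), a bZIP factor that is induced both by ATF4 and as an immediate early gene, was at 18.6, 14.9 and 20.1 CPM on day 0 and at 23.3, 28.7 and 22.9 CPM on day 30. The ranges were apart by a small gap. The log2 change of 0.40 ± 0.17 passed narrowly (edgeR adjusted p = 0.0485). The call was lost with DESeq2 (adjusted p = 0.0929), with relative log expression scaling (0.0581), without a filter on low counts (0.071), and when replicate 1 or 2 of either day was left out (0.115 and 0.218 for those of day 0, 0.0729 and 0.208 for those of day 30), where the change ran from 0.26 to 0.43. Without day 30 replicate 3 it was 0.49 (adjusted p = 0.0282).

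ATF5 (ENSG00000169136.13, chromosome 19, 49928702 to 49933935), a relative of ATF4 that is also controlled at translation and is tied to the mitochondrial stress response, was at 6.70, 6.76 and 7.16 CPM on day 0 and at 7.59, 6.19 and 3.39 CPM on day 30. The days overlapped, and the lowest value came from day 30 replicate 3, with 17 counts. The log2 value was −0.29 ± 0.29 (95% interval −0.93 to 0.34, edgeR adjusted p = 0.367), and −0.04 without that library. On the opposite strand the span of AC011452.1, introns included, covers all 5234 bases of the ATF5 locus. AC011452.1 held 155.66 counts on day 0 and 93.66 on day 30, against 163.5 and 170.5 for ATF5 itself. The start of ATF5 also overlaps IL4I1 and NUP62 on that strand, and NUP62 held 1746.66 and 929.66 counts. With the reads of MIR4751, on the same strand, added, the log2 value of ATF5 was −0.34.

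XBP1 (ENSG00000100219.17, chromosome 22, 28794555 to 28800597), the factor that the IRE1 branch activates, was at 90.2, 97.4 and 103 CPM on day 0 and at 57.9, 71.5 and 64.8 CPM on day 30. All day 30 libraries were below all day 0 libraries. The log2 change was −0.68 ± 0.12 (edgeR adjusted p = 0.000492) and −0.64 without day 30 replicate 3.

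Among the effectors, PPP1R15A (ENSG00000087074.8, chromosome 19, 48872392 to 48876057) showed the second largest rise of the members. It was at 15.5, 13.4 and 15.4 CPM on day 0 and at 65.4, 71.5 and 58.3 CPM on day 30. The days were far apart in every library. The log2 change was 2.05 ± 0.14 (edgeR adjusted p = 2.3e-07), a 4.42-fold rise in mean CPM, and 2.16 without day 30 replicate 3. PPP1R15B, its constitutive paralog, had the opposite sign, at 108 ± 8.12 CPM (SD, n = 3) before and 95.4 ± 4.38 CPM after differentiation, with a log2 change of −0.27 ± 0.10 (adjusted p = 0.0284). That call was lost (adjusted p from 0.0668 to 0.129) with total counts only, without a filter, with a mean count of at least 50, and when replicate 2 of day 0 or any library of day 30 was left out.

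TRIB3 (ENSG00000101255.12, chromosome 20, 362835 to 397559), a pseudokinase induced by ATF4 and CHOP that restrains both ATF4 and AKT signalling, was at 13.8, 10.7 and 12.8 CPM on day 0 and at 24.6, 28.8 and 28.7 CPM on day 30. The days were well apart, and the log2 change was 1.04 ± 0.15 (edgeR adjusted p = 7.57e-05), or 1.05 without day 30 replicate 3. Its paralog TRIB2 rose by a log2 change of 1.25 ± 0.16 and TRIB1 fell by 1.17 on the log2 scale.

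CHAC1 (ENSG00000128965.13, chromosome 15, 40952962 to 40956519), an enzyme that cleaves glutathione, was at 31.7, 30.9 and 27.6 CPM on day 0 and at 17.2, 16.4 and 18.2 CPM on day 30. Every day 30 library was below every day 0 library. The log2 change was −0.89 ± 0.13 (edgeR adjusted p = 6.9e-05), and −0.89 again without day 30 replicate 3. CHAC2, the paralog with lower activity, fell by 2.19 on the log2 scale from 7.52 CPM.

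SESN2 (ENSG00000130766.5, chromosome 1, 28259527 to 28282491), a leucine sensor that restrains mTORC1 through the GATOR2 complex, was at 47.9, 34.0 and 32.4 CPM on day 0 and at 22.4, 27.7 and 36.9 CPM on day 30. The days overlapped, since day 30 replicate 3 lay above 2 of the day 0 libraries. The log2 change was −0.50 ± 0.18 (edgeR adjusted p = 0.0293) and −0.65 without that library (adjusted p = 0.00746). The call was lost with total counts only (adjusted p = 0.0966), with a mean count of at least 50 (0.0799), and when replicate 1 of day 0 (0.0838) or replicate 1 (0.0891) or 2 (0.0878) of day 30 was left out. The other sestrins differed in direction: SESN1 was at 48.8 CPM before and 20.0 CPM after (log2 change −1.38 ± 0.13), whereas SESN3 was at 84.3 and 365 CPM and rose by 2.03 ± 0.13 on the log2 scale (adjusted p = 1.83e-07).

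DDIT4 (ENSG00000168209.6, chromosome 10, 72273920 to 72276036), which acts through the TSC complex to lower mTORC1 activity and also answers to hypoxia and glucocorticoids, was at 65.6, 36.4 and 67.0 CPM on day 0 and at 15.0, 19.7 and 26.7 CPM on day 30. Day 0 replicate 2 was well below the other day 0 libraries, and still above every day 30 library. The log2 change of −1.59 ± 0.25 (edgeR adjusted p = 0.000162) was the largest fall of the members and had their second largest standard error, after that of ATF5. It was −1.84 without day 0 replicate 2 and −1.75 without day 30 replicate 3. DDIT4L, its paralog, fell by 3.61 on the log2 scale, from 6.35 to 0.535 CPM.

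**Figure D2:**
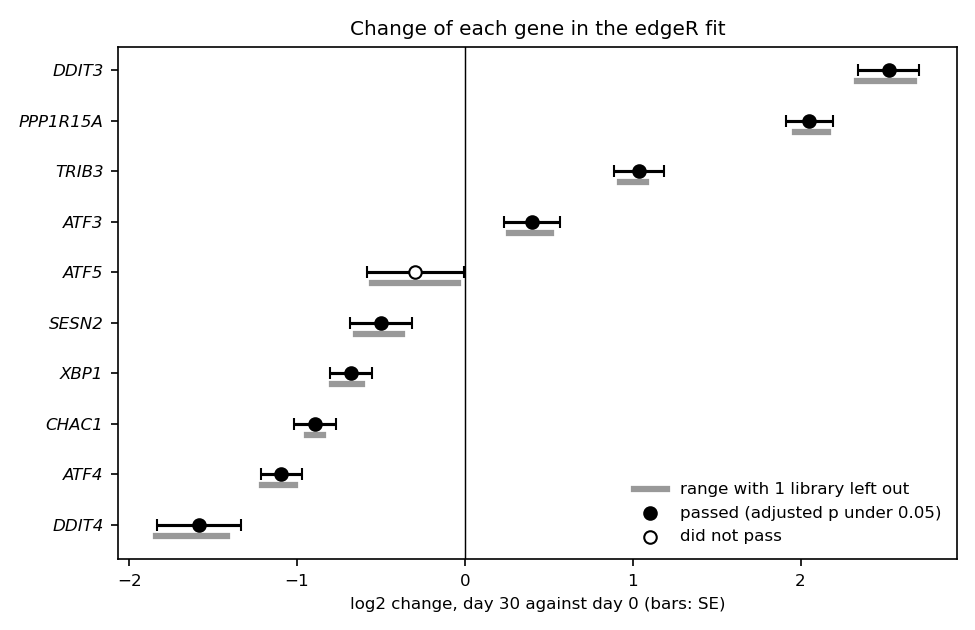
Log2 change of each gene between the days in the edgeR fit (points, with the standard error as bars) and the range of that value when 1 of the 6 libraries was left out (grey lines). DDIT3 is at 2.52 and PPP1R15A at 2.05 at the top and DDIT4 at −1.59 at the bottom, and no grey line crosses 0.

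Since the members moved apart, the proportions of DDIT3, PPP1R15A and TRIB3 to ATF4 differed between the days, while those of CHAC1 and DDIT4 overlapped. Proportions of the other members to ATF4 were not taken. For every 100 ATF4 counts DDIT3 had 1.16, 1.33 and 1.42 counts on day 0 and 16.5, 14.8 and 17.1 on day 30. PPP1R15A went from 3.77 to 4.58 counts per 100 on day 0 to 34.4 to 37.0 on day 30, and TRIB3 from 3.02 to 4.08 to 13.8 to 17.0. These 3 genes were higher relative to ATF4 in every day 30 library than in any day 0 library. CHAC1 was at 7.10 to 9.39 per 100 on day 0 and 8.50 to 10.7 on day 30, and DDIT4 at 10.2 to 19.4 and 8.40 to 15.8, so for both of them the days overlapped. These proportions follow from the values above and are given with no test.

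Per kilobase of exon, ATF4 was first and ATF5 last on both days, and most places between them differed. On day 0, ATF4 was first at 143 ± 10.5 CPM per kilobase, followed by XBP1 at 32.02 and DDIT4 at 27.4, whose ranges overlapped, then CHAC1 at 14.6 and SESN2 at 11.03, which also overlapped. PPP1R15A at 4.76, ATF3 at 4.42, TRIB3 at 3.63 and DDIT3 at 3.62 came below all of these, and each overlapped the next. ATF5 was last at 2.33. On day 30, ATF4 was still first at 71.7 ± 4.74, and the next places were held by DDIT3 at 22.2, XBP1 at 21.4 and PPP1R15A at 21.0, which could not be put in order beyond their spread. DDIT4 at 9.94, SESN2 at 8.40 and CHAC1 at 8.39 overlapped each other in turn, as did CHAC1 and TRIB3 at 7.97, and ATF3 at 6.19 and ATF5 at 1.94 came last. With the length of the longest transcript in place of all exons, DDIT3, XBP1 and PPP1R15A kept the places from the second to the fourth on day 30, at 27.2, 29.8 and 27.4, and ATF5 was last on both days. Other places on day 30 did depend on the length used: DDIT3 went from the second to the fourth, SESN2 from the sixth to the ninth, and ATF3 from the ninth to the fifth, at 11.9 CPM per kilobase.

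**Figure D3:**
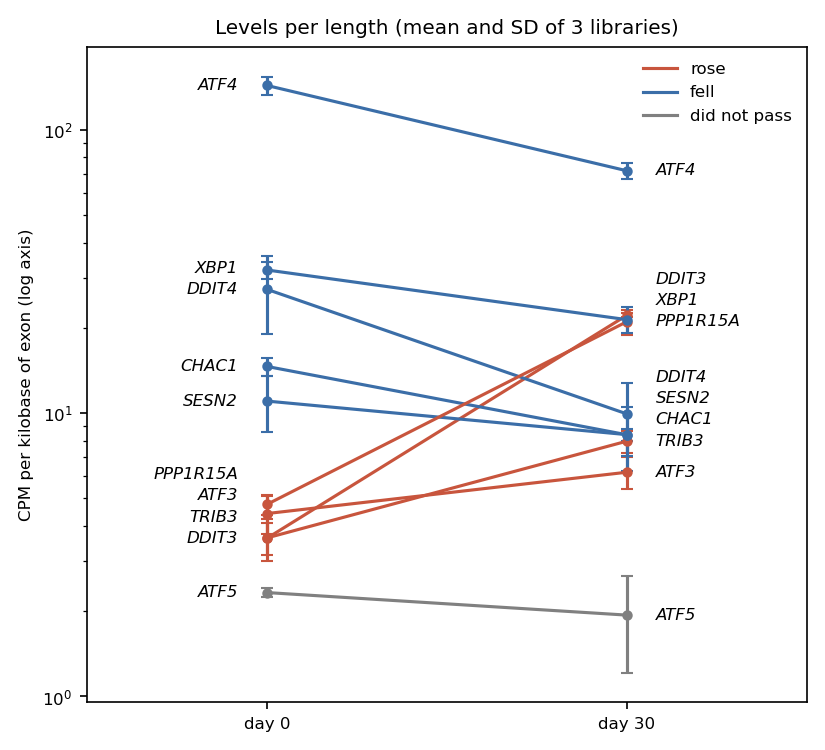
Mean level per kilobase of exon (log axis, bars show the SD of 3 libraries) of each gene on day 0 and day 30, coloured by whether it rose, fell or did not pass the edgeR test; names are moved apart where they would collide. The lines of DDIT3 and PPP1R15A climb from 3.62 and 4.76 to 22.2 and 21.0, where they meet XBP1, while ATF4 stays on top.

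The genes around the members were taken from 13 lists of the pathway and its neighbours, which hold 163 different genes. Of 155 tested, 39 rose and 93 fell, beside 39.8% higher, 36.8% lower and 76.6% called either way among all genes tested; the counts of the single lists stand beside the same shares. Without day 30 replicate 3, 125 of the 132 called genes kept their call and direction, 7 lost the call, none changed sign, and 2 others gained one. Those named here that lost it are PPP1R15B and ZFP36, and PPP1CB gained one. The rule named the largest rise and the largest fall of each list, and other genes of the lists were chosen after their values were seen.

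Upstream of ATF4, most of the machinery fell. Among the eIF2 kinases and their activators 6 of 8 tested genes fell and 1 rose (median log2 change −1.01). PERK (EIF2AK3), the kinase that senses stress in the endoplasmic reticulum, was the one that rose, with 49.3 CPM before and 78.1 CPM after and a log2 change of 0.56 ± 0.13 (adjusted p = 0.00271). GCN2 (EIF2AK4), which senses lack of amino acids, dropped from 275 to 82.1 CPM (log2 change −1.84 ± 0.13), and its partner GCN1 fell by 1.61. PKR (EIF2AK2), which binds double-stranded RNA, fell by 1.02 and HRI (EIF2AK1), which senses heme and mitochondrial signals, fell by 0.47. OMA1, the mitochondrial protease upstream of HRI, had the largest fall and fell by 2.08. With total counts only, or with a mean count of at least 50, 2 genes of this list rose.

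Of 12 tested genes for eIF2, its exchange factor eIF2B and its phosphatases, 8 fell and none rose in edgeR (median −0.83), nor at an unadjusted p under 0.05 (0 genes) or with DESeq2 (0 genes). With total counts only, with a mean count of at least 50, or without day 30 replicate 3, 1 of them rose. PPP1CC, a catalytic subunit that PPP1R15A can bring to eIF2, had the largest fall and fell by 2.40, and PPP1CA fell by 1.59, whereas PPP1CB was at 177 and 227 CPM (log2 value 0.27, adjusted p = 0.0762). EIF2S3, a subunit of eIF2, went from 718 to 169 CPM, while the catalytic eIF2B subunit EIF2B5 was at 44.6 and 47.6 CPM (adjusted p = 0.96).

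The sensors of the unfolded protein response had the other sign. Of 7 tested sensor and protease genes 6 rose and 1 fell (median 0.54). ATF6B, in the MHC region, had no reads in any library. Whether it was silent or its reads were lost in alignment or counting cannot be told. ATF6 rose by a log2 change of 0.52, IRE1 (ERN1) by 0.54 (0.46 and adjusted p = 0.0514 without day 0 replicate 2) and the site-2 protease MBTPS2, which cuts ATF6 in the Golgi, by 1.02. CREB3L1, an ATF6-like membrane-bound factor, rose most (1.13 ± 0.31), and CREB3L2 fell by 0.93. Chaperones and degradation factors of the endoplasmic reticulum moved both ways, with 6 higher and 9 lower of 20 tested (median 0.12), and with 9 higher and 8 lower under total counts only and 8 each way with a mean count of at least 50. DNAJB9, a co-chaperone that binds IRE1, rose from 12.5 to 68.4 CPM (log2 change 2.35 ± 0.19), HERPUD1, a degradation factor, from 19.8 to 78.3 CPM, and SEL1L, a degradation factor as well, from 58.4 to 161 CPM. PDIA6 and PDIA4, which form disulfide bonds, and the lectin chaperone CALR had log2 changes of −1.40, −1.11 and −0.94, and SERP1 had the largest fall and fell by 1.73. HSPA5 (BiP), the chaperone often used as a reading of this response, was at 296 and 344 CPM, and its log2 value of 0.12 ± 0.14 missed the threshold (95% interval −0.20 to 0.44, adjusted p = 0.458).

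Downstream, most of the listed amino acid targets of ATF4 fell, and the part of ATF4 in their fall was not tested. Of 21 tested genes of amino acid synthesis, one-carbon metabolism and uptake 17 fell and 2 rose (median −1.75). The serine pathway enzymes PHGDH and PSAT1 were at 340 and 351 CPM on day 0 and at 38.7 and 29.02 CPM on day 30, with log2 changes of −3.25 ± 0.17 and −3.71 ± 0.22, and the mitochondrial folate enzyme MTHFD2 fell by 2.18. Asparagine synthetase (ASNS), a common reporter of ATF4 activity, dropped from 107 to 57.5 CPM (log2 change −0.99 ± 0.15, adjusted p = 0.000123). The arginine and lysine transporter SLC7A3 had the largest fall and fell by 4.10. Those that rose were SLC1A4, a carrier of serine and alanine, with 6.68 CPM before and 143 CPM after (log2 change 4.30 ± 0.27), and the mitochondrial folate enzyme ALDH1L2, at 21.3 and 37.7 CPM (0.71 ± 0.19). Of 19 tested cytosolic aminoacyl-tRNA synthetases, many of them ATF4 targets, 16 fell and 2 rose (median −0.93), with TARS1 lowest (−1.82) and HARS1 highest (0.86). VARS1, also listed, held too few counts to test. As for ATF6B, whether its RNA was low or its reads were lost in alignment or counting cannot be told. The second to rise, SARS1, had 0.31 (adjusted p = 0.0296), and only 1 gene of the list rose without a filter on low counts and when replicate 1 or 2 of either day was left out.

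Other targets of ATF4 and CHOP were divided, with 4 higher and 7 lower of 12 tested (median −0.57). CCPG1, a receptor for autophagy of the endoplasmic reticulum, rose from 15.3 to 82.4 CPM (log2 change 2.31 ± 0.16), KLHL24 rose by a log2 change of 1.31 and the oxidoreductase ERO1A by 0.66. GDF15, a secreted stress hormone, had the largest fall and fell by 2.59 from 10.6 CPM, the translation repressor EIF4EBP1 fell by 2.15 and the death receptor TNFRSF10B, a target of CHOP, fell by 0.86. Of 7 tested mitochondrial chaperones and proteases 6 fell and none rose in edgeR (median −1.26), with 0 at an unadjusted p under 0.05 and 0 with DESeq2. HSPD1 had the largest fall and fell by 2.66.

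The 8 paralogs of the members gave 2 rises and 6 falls (median −1.27), and the paralog not yet described, JDP2, which is related to ATF3, fell by 1.37. With a mean count of at least 50, 3 of them fell, since PPP1R15B lost its call and DDIT4L and CHAC2 were too low for that filter. Partners of SESN2 and DDIT4 upstream of mTORC1 had 4 rises and 6 falls among 12 tested (median −0.24). TSC1 rose by a log2 change of 0.94, and the GATOR2 subunit SEH1L had −1.44. Only 4 of these partners fell with DESeq2, with total counts only, without a filter, and with a mean count of at least 50. The same held when any library but replicate 3 of day 0 was left out. Rises numbered 3 with DESeq2 and without a filter. They also numbered 3 when replicate 2 or 3 of day 0 or replicate 1 or 3 of day 30 was left out.

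The last 3 lists hold genes that share other inducers with the members. Of 10 tested immediate early genes, which follow growth factors, activity and handling, 8 rose and 2 fell (median 1.34), and the 12 listed summed to 149 to 164 CPM on day 0 and 290 to 370 CPM on day 30. DUSP1, a MAP kinase phosphatase, rose most, from 5.14 to 44.5 CPM, and IER2 fell by 1.85. ZFP36, the other that fell, had at most 34 counts in a library, and 1 gene fell with DESeq2, with total counts only, with a mean count of at least 50, and when replicate 1 of either day or replicate 3 of day 30 was left out. ATF3 and PPP1R15A, which are also immediate early genes, moved with this list, and its part in their rise was not tested. Of 10 tested p53 targets 6 fell and none rose in edgeR (median −0.83), with 0 at an unadjusted p under 0.05 and 0 with DESeq2, and FDXR fell by 2.86. With total counts only, or with a mean count of at least 50, 1 p53 target rose. Of 12 tested genes of the hypoxia and glucocorticoid responses 5 rose and 5 fell (median 0.10). Those that fell with DDIT4 included ADM, from 83.0 to 2.53 CPM, the hypoxia gene EGLN3 and the glucocorticoid gene FKBP5, and those that rose included TSC22D3 (log2 change 1.58), another glucocorticoid gene, and VEGFA (0.91). Their part in the fall of DDIT4 was not tested.

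**Figure D4:**
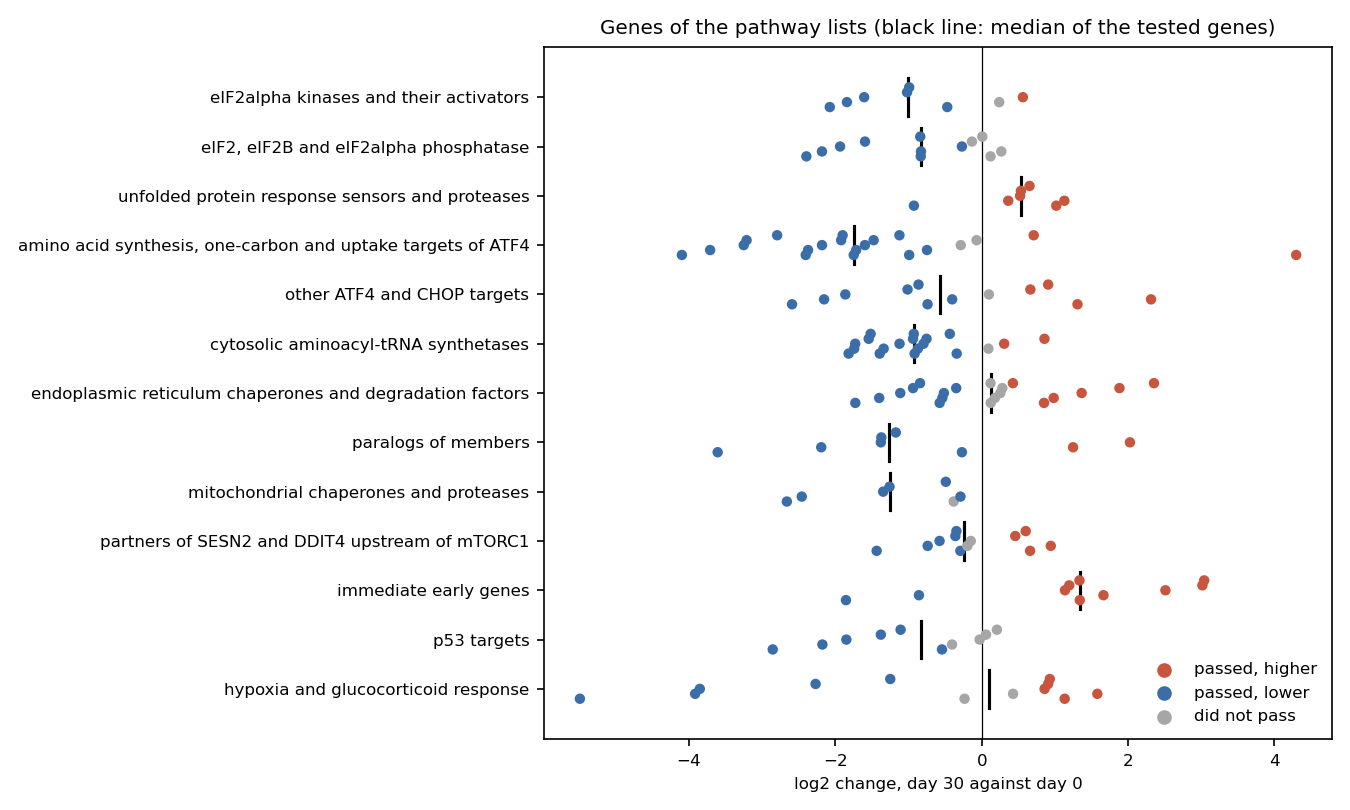
Log2 change between the days (horizontal axis) of every tested gene of the 13 lists, 1 point per gene, coloured by the edgeR call, with the median of a list as a black line. Amino acid genes have the lowest median, −1.75, and immediate early genes the highest, 1.34.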

How the data were processed

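Total RNA was depleted of ribosomal RNA and made into libraries with a TruSeq stranded kit for a NovaSeq instrument, per the labels' protocols. Per the submitters' processing notes, FastQC 0.11.9 was used and the build was hg38. The aligner, counter, annotation and strand setting are not stated in the sources at hand. The authors deposited expected counts, with fractions (83.7% of values above 0 are exactly whole). The plan assumed whole counts, so they were rounded for the tests. Columns of values not used numbered 0.

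Symbols came from a table of gene IDs, and positions and exon lengths from GENCODE release 29 of the same build. Overlaps between genes are those of whole gene spans, introns included. CPM uses total counts. Changes were tested over all genes in R 4.3.3 with edgeR 4.0.16 (quasi-likelihood, TMM, filterByExpr, 18040 genes, 2-sided, Benjamini-Hochberg over all of them). The code was tested on simulated data in which few genes changed, as many up as down. That did not test the scaling where most genes are called, as here. The standard error is the absolute log2 change over the square root of F. Alternatives were DESeq2 1.42.0, other scaling, filters and rounding, a replicate block and leaving out each library. No 2 libraries were copies of each other (chi-square per degree of freedom at least 5.83).

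The members and lists were chosen with earlier results of these data known. Named were all members, the largest rise and fall of each list, and other genes of the lists chosen after their values were seen. The set of members gets no test of its own.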

Additional observations from a re-analysis of the deposited data

How the results depend on the processing

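When 1 library was left out, DDIT3 ranged from 2.34 to 2.68 on the log2 scale, PPP1R15A from 1.97 to 2.16, ATF4 from −1.21 to −1.01, CHAC1 from −0.94 to −0.85, DDIT4 from −1.84 to −1.42 and XBP1 from −0.79 to −0.61. These 6 and TRIB3 passed under all 14 alternatives. ATF3 (0.26 to 0.52) and SESN2 (−0.65 to −0.38) kept their sign and each lost the call under some settings. These losses numbered 13 over both genes, where a setting that ended both calls counts once for each gene. ATF5 (−0.56 to −0.04) never passed, and the cause was not tested. Members that rose numbered 3 or 4 and those that fell 4 or 5, and pathway genes 35 to 45 and 82 to 93. With total counts only the median of all genes shifted by 0.09. The replicate numbers did not pair the libraries (correlations of deviations 0.0746, −0.004 and −0.0517 for equal numbers). With the replicate block 3 members rose and 5 fell, with 37 pathway genes higher and 88 lower, and ATF3 did not pass (0.40, edgeR adjusted p = 0.0831), while 1 immediate early gene fell and 1 tRNA synthetase rose. Per length, 8 members on day 0 and 2 on day 30 kept their place with the longest transcript. Depth limits ATF5, with 17 counts in 1 library, and DDIT3, with 113 counts over day 0.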
